A study of Rattus norvegicus with 6 samples.

Results

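The genes described here are 39 chaperones, folding enzymes, stress sensors and degradation factors of the endoplasmic reticulum (ER) and of the unfolded protein response, measured in rat liver. They were taken as the probe sets whose only gene symbol was 1 of the listed genes. That gave 38 genes with 57 probe sets, of 14217 named genes in all, while Ern1 (the sensor IRE1) had no probe set with that symbol alone. Liver RNA was hybridized to 6 arrays, 2 in each of 3 groups. BBDR.lyp/lyp rats, diabetes-prone animals homozygous for the lyp mutation of Gimap5, were sampled pre-hyperglycemia (labelled 50 days old, within 5 days) and post-hyperglycemia (labelled 55 days, within 5 days). BBDR.+/+ rats of 55 days, also within 5 days, carry the normal gene and served as the non-diabetic group on the shared BBDR background. The labels state a 12 h fast for the 3 groups, while the methods describe food without restriction. The labels tie no array to a rat, so p-values reflect the spread among these samples alone, which may be technical, and in whole liver fewer cells of a type and less RNA per cell cannot be told apart.

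Secreted and membrane proteins enter the ER through the SEC61 channel and are folded there by chaperones and disulfide isomerases. Proteins that fail to fold are sent back to the cytosol and degraded, which is called ER-associated degradation (ERAD). When unfolded protein accumulates, 3 sensors in the ER membrane respond. PERK (Eif2ak3) slows translation and raises the factor ATF4, IRE1 splices the Xbp1 mRNA into its active form, and ATF6 is cut to release a transcription factor. ATF6 and XBP1 raise chaperone and ERAD genes through short promoter elements, and ATF4 raises genes of amino acid supply and, with CHOP (Ddit3), of stress signalling. Hepatocytes make most plasma proteins and have a large ER.

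The promoter elements are shown because ATF6 and XBP1 are known to act through elements of these forms. RefSeq promoter windows (assembly GRCr8, 250 bases before to 50 after the annotated start) were found for 30 of the 39 members. The windows of Manf, Pdia3, Pdia6, Ero1a, Atf6, Ern1, Sec61a1, Derl1 and Os9 were not analysed here. The ER stress element, CCAAT and CCACG spaced by 9 bases, was searched on both strands and stood in the windows of 7 members, against 0.0657% of all 33469 windows. These members were Hspa5, Hsp90b1, Dnajc3, Creld2, Canx, Calr and Xbp1. The ER stress element II, ATTGG and CCACG spaced by 1 base, stood in the windows of Hyou1, Dnajb11 and Herpud1, against 0.0508% of all windows, and this second form was added to the search after the Herpud1 promoter had been read. Below, capitals mark the element, and a reverse-strand match reads CGTGG first. The first and last entries give the whole 250 bases before the start, and the others give the element with up to 20 bases on each side.

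Hspa5, chr3:38452766-38453015, plus strand: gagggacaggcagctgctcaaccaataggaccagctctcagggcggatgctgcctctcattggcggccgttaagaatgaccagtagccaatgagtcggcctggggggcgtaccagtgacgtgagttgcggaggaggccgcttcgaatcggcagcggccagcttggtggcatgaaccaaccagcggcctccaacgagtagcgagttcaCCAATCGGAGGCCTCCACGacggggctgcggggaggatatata
Hsp90b1, chr7:23012431-23012489, minus strand: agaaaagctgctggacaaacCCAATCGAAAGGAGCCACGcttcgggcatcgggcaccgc
Hsp90b1, chr7:23012327-23012385, minus strand: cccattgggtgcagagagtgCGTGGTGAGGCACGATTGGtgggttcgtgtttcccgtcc
Dnajc3, chr15:102432514-102432572, plus strand: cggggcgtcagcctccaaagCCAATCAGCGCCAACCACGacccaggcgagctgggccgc
Creld2, chr7:121789219-121789277, plus strand: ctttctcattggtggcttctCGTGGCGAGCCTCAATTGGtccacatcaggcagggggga
Canx, chr10:35158049-35158107, minus strand: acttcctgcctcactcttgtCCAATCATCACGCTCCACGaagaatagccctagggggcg
Calr, chr19:40213117-40213173, plus strand: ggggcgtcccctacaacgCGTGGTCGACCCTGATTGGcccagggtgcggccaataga
Xbp1, chr14:84604538-84604596, plus strand: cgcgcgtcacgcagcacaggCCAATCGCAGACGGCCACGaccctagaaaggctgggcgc
Hyou1, chr8:53602674-53602724, plus strand: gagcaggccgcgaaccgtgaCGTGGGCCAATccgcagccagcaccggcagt
Hyou1, chr8:53602774-53602824, plus strand: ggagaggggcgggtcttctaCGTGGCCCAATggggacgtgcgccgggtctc
Herpud1, chr19:10614708-10614957, minus strand: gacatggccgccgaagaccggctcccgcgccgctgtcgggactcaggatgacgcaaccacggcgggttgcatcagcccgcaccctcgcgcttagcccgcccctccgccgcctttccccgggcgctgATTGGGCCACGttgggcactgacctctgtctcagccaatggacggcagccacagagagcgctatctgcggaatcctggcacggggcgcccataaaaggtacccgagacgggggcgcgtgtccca

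Hsp90b1 and Hyou1 each held 2 copies. The near end of the element lay 25 bases before the start in Hspa5, 114 in Herpud1 and 212 in Canx, and the element of Dnajb11 crossed the start with its last base. The shorter UPR element TGACGTGG stood in the windows of Hyou1 and Vcp, against 0.595% of all windows. Of the amino acid response elements to which ATF4 binds, the form TTGCATCA stood in the Herpud1 window (0.795% of all windows) and the form TGATGNAAT in the window of 0 members (1.09% of all windows). The window of Gdf15 held neither form. Either ER stress element was thus found in 10 of the 30 members with a window. Each match is a run of letters and not a shown binding site.

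The arrays were labelled liver and carried high signal of hepatocyte markers, whose mean over 5 genes was 13.9 on the log2 scale on every array. Of these markers limma passed 0, with at most 1 at an unadjusted p under 0.05 in a comparison, and 0 of 13 measured pancreatic acinar markers passed, with 1 to 3 at an unadjusted p under 0.05. Some Kupffer cell and neutrophil markers differed between groups. Post-hyperglycemia minus BBDR.+/+, 3 of 6 Kupffer cell markers and 2 of 5 neutrophil markers passed, each of these 5 higher. Pre-hyperglycemia minus BBDR.+/+, 2 of 5 neutrophil markers also passed, S100a8 with a log2 difference of 1.21 and S100a9 with 1.665. The 5 split into 3 positive and 2 negative there, with a median of 0.12 and a lowest value of -0.07. Of the Kupffer cell markers 0 passed, and 4 were higher at an unadjusted p under 0.05. Post-hyperglycemia minus pre-hyperglycemia limma passed 0 of both lists, with 1 Kupffer cell and 0 neutrophil markers at an unadjusted p under 0.05, and rank product also passed 0. The summed signal of the Kupffer cell list ran from 7497 to 7530 on BBDR.+/+ arrays, from 8910 to 9273 pre-hyperglycemia and from 9212 to 9777 post-hyperglycemia, and that of the neutrophil list from 108 to 110, from 203 to 258 and from 210 to 220. Their part in the results below was not tested. The post-hyperglycemia arrays also had a larger 3′ minus 5′ difference in the array's control probe sets for actin and GAPDH, a measure of how much of the signal comes from the 3′ end of transcripts. Averaged over both controls it was 1.74 and 1.68 on the log2 scale post-hyperglycemia, 1.09 and 0.93 pre-hyperglycemia, and 1.04 and 0.78 in BBDR.+/+, so post-hyperglycemia did not overlap the other groups. With this difference as a covariate in the fit, limma passed 0 members in both comparisons with post-hyperglycemia, and 0 of all 31042 probe sets. As the covariate itself separates post-hyperglycemia from the other groups, the fit cannot tell it from the group. The loss of calls and the adjusted p-values of this fit therefore do not bear on a cause. The fitted differences of the called members did not all become smaller under the covariate, as is given beside each.

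Most members did not pass between any of the groups. A gene was represented by its brightest probe set, tested with limma over all 6 arrays, and called at an adjusted p under 0.05 over all probe sets. Post-hyperglycemia minus BBDR.+/+, 2 of 38 members were lower (Herpud1 and Pdia4) and 0 were higher, where 1.24% of all named genes were lower and 2.29% higher. At an unadjusted p under 0.05, 3 members were higher and 2 lower, where 13.4% and 5.47% of all genes were. Post-hyperglycemia minus pre-hyperglycemia, 1 was higher (Gdf15) and 1 lower (Herpud1), where 0.703% of all genes were higher and 0.668% lower. Unadjusted, these numbers were 5 and 1, beside 7.52% and 5.89% of all genes. Pre-hyperglycemia minus BBDR.+/+, 1 was lower (Gdf15) and 0 were higher, where 0.218% of all genes were lower and 0.584% higher. Unadjusted, 7 were lower and 0 higher, beside 3.72% and 8.48% of all genes. Rank product, called at a share of false positives under 0.20, passed 0, 1 and 1 members in the 3 comparisons, Gdf15 in both of the latter, where it passed 1.02%, 0.865% and 1.22% of all genes.

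Groups of 2 arrays often do not overlap. Post-hyperglycemia minus BBDR.+/+, both arrays of 1 group were beyond both of the other in 8 members upward and 6 downward, beside 32.4% and 18.3% of all named genes. Post-hyperglycemia minus pre-hyperglycemia this held for 15 upward and 11 downward, beside 25.6% and 20.5%, and pre-hyperglycemia minus BBDR.+/+ for 7 and 9, beside 28.3% and 17.7%. The median difference of the members was 0.0031, 0.017 and 0.0015 on the log2 scale in the 3 comparisons, in that order, beside 0.040, 0.013 and 0.024 over all named genes. All signs follow the deposited labels.

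**Figure D1:**
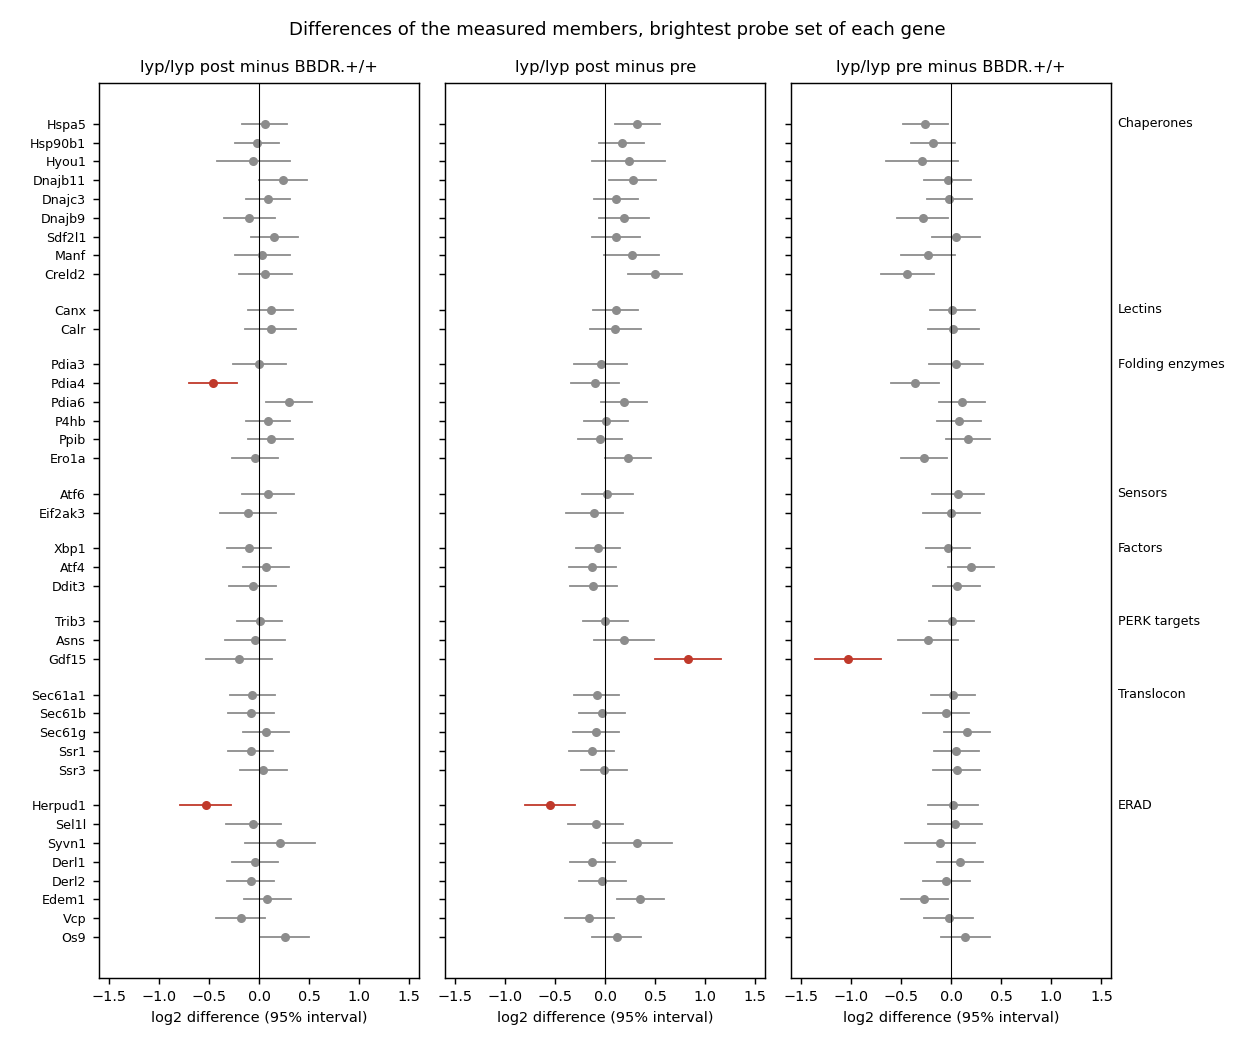
The log2 difference of each of the 38 measured members (point) with its 95% interval from limma (line), in 3 comparisons, with members grouped by role on the vertical axis. Red marks an adjusted p under 0.05: Pdia4 and Herpud1 lie left of 0 against BBDR.+/+, Gdf15 right and Herpud1 left of 0 against pre-hyperglycemia, and Gdf15 left of 0 in pre-hyperglycemia minus BBDR.+/+, while the other members are grey.

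Of the 9 ER chaperones and co-chaperones, 8 had their lowest mean signal pre-hyperglycemia by the brightest probe set. The share of all named genes with this order was not counted, and limma passed 0 of the 9 in each comparison. Hspa5 (BiP), the HSP70 chaperone that also holds the 3 sensors inactive, had a log2 signal of 12.50 and 12.47 pre-hyperglycemia, 12.79 and 12.71 in BBDR.+/+, and 12.76 and 12.85 post-hyperglycemia. The pre-hyperglycemia arrays were below the other 4, which overlapped. Post-hyperglycemia minus pre-hyperglycemia, the difference was 0.32 ± 0.10 (SE; adjusted p = 0.156), a 1.25-fold ratio, and post-hyperglycemia minus BBDR.+/+ it was 0.06, with a 95% interval from -0.17 to 0.28.

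Creld2, an ER protein with disulfide isomerase activity, had the same order. Its log2 signal was 9.61 and 9.64 pre-hyperglycemia, 10.22 and 9.90 in BBDR.+/+, and 10.09 and 10.16 post-hyperglycemia. Post-hyperglycemia minus pre-hyperglycemia, its difference was 0.50 ± 0.12 (SE), a 1.41-fold ratio, with an adjusted p of 0.0636. Hsp90b1 (GRP94), the HSP90 chaperone of the ER, read 12.08 on both pre-hyperglycemia arrays, 12.28 and 12.25 in BBDR.+/+, and 12.21 and 12.28 post-hyperglycemia, again with the pre-hyperglycemia arrays lowest. Creld2 and Hsp90b1 were chosen for their values on every array after these had been seen.

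By their brightest probe sets, 9 of the 9 chaperones and co-chaperones had a positive difference in post-hyperglycemia minus pre-hyperglycemia. The log2 differences ran from 0.11 to 0.50 with a median of 0.23, and limma passed 0 of them. At an unadjusted p under 0.05, 3 were higher there (Hspa5, Dnajb11 and Creld2), and rank product passed 0. The dimmer Hyou1 probe set, 1370665_at, went the other way there, at -0.46 (limma adjusted p = 0.277) beside 0.23 for the brightest. Of all named genes, 7598 of 14217 had a positive difference. In pre-hyperglycemia minus BBDR.+/+, 8 of the 9 had a negative difference, with a median of -0.23, beside 6209 of 14217 named genes. Of these, Dnajc3 at -0.02 and Dnajb11 at -0.03 were near 0, with groups that overlapped. There 0 passed, with 3 lower at an unadjusted p under 0.05 (Hspa5, Dnajb9 and Creld2). Both comparisons use the same pre-hyperglycemia arrays and are not independent of each other. Post-hyperglycemia minus BBDR.+/+, the 9 ran from -0.10 (Dnajb9) to 0.24 (Dnajb11), with a median of 0.06.

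**Figure D2:**
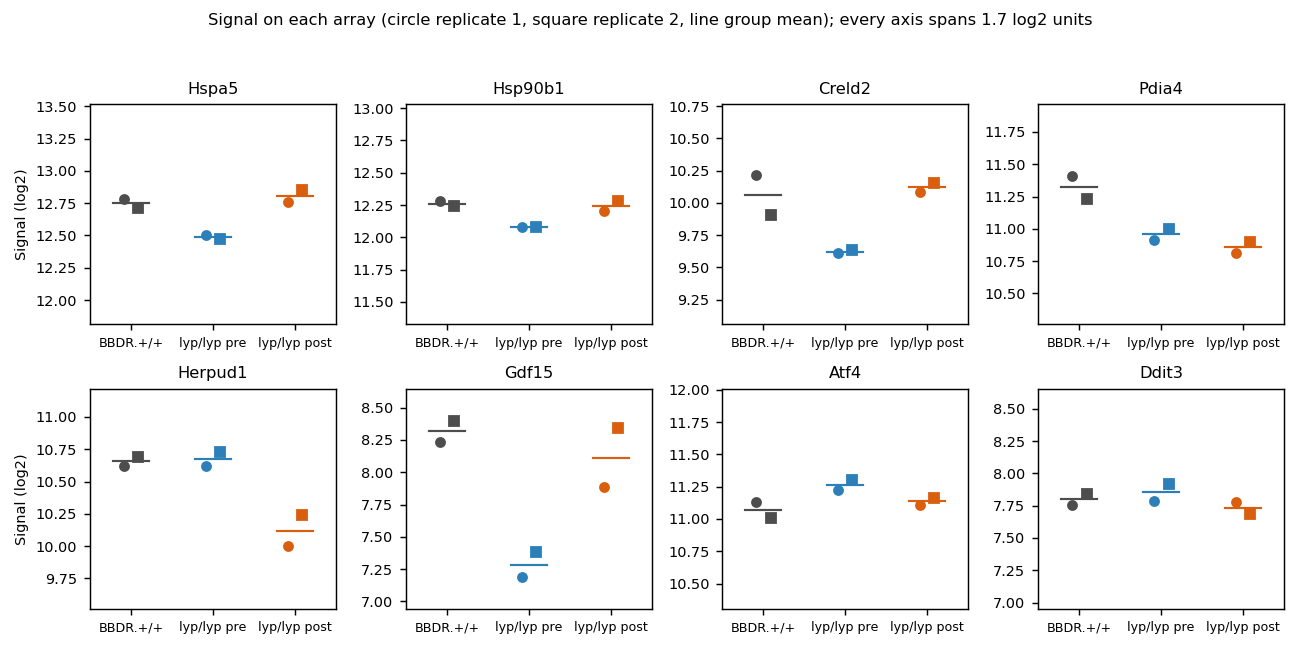
The log2 signal of 8 members on each of the 6 arrays, by group, with a circle for replicate 1, a square for replicate 2 and a line at the group mean, on vertical axes of equal span. Hspa5, Hsp90b1 and Creld2 are lowest on both pre-hyperglycemia arrays, Herpud1 is lowest on both post-hyperglycemia arrays, Pdia4 is highest on both BBDR.+/+ arrays, and Gdf15 at 7.19 and 7.38 pre-hyperglycemia is below its other 4 arrays.

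The lectin chaperones calnexin (Canx) and calreticulin (Calr) hold glycoproteins in the ER while they fold. By its brightest probe set, Canx had a log2 signal of 11.27 and 11.21 pre-hyperglycemia, 11.28 and 11.18 in BBDR.+/+, and 11.34 and 11.36 post-hyperglycemia. Its differences were 0.12, 0.11 and 0.01 in post-hyperglycemia minus BBDR.+/+, post-hyperglycemia minus pre-hyperglycemia and pre-hyperglycemia minus BBDR.+/+. Calr differed by 0.12, 0.10 and 0.02 in the same order. Neither gene passed by these probe sets in a comparison.

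Among the 6 folding enzymes, Pdia4 (ERp72), a protein disulfide isomerase, fell in post-hyperglycemia liver against BBDR.+/+. Its log2 signal was 10.92 and 11.00 pre-hyperglycemia, 11.41 and 11.23 in BBDR.+/+, and 10.82 and 10.90 post-hyperglycemia, so both BBDR.+/+ arrays were above the other 4. The difference post-hyperglycemia minus BBDR.+/+ was -0.46 ± 0.11 (SE; adjusted p = 0.0361), 1.38-fold lower. Pre-hyperglycemia minus BBDR.+/+ it was -0.36 (adjusted p = 0.2004), and post-hyperglycemia minus pre-hyperglycemia -0.10 (adjusted p = 0.748). Without BBDR.+/+ replicate 1 or 2 the first difference was -0.37 (adjusted p = 0.192) or -0.55 (0.108), and without post-hyperglycemia replicate 1 or 2 it was -0.42 (0.128) or -0.50 (0.0821). With the 3′ minus 5′ covariate it was -0.70 (adjusted p = 0.770). The other disulfide isomerases were not called. Pdia6 differed by 0.30 against BBDR.+/+ (adjusted p = 0.140), P4hb, also a subunit of collagen prolyl hydroxylase, by 0.09, and Pdia3, the partner of calnexin and calreticulin, by 0.0015. Ppib, an ER prolyl isomerase, and Ero1a, the oxidase that recharges the isomerases, differed by 0.12 and -0.04.

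The sensors and their transcription factors did not pass in any of the 3 comparisons by their brightest probe sets. Eif2ak3 had a log2 signal of 7.70 and 7.84 pre-hyperglycemia, 7.79 and 7.75 in BBDR.+/+, and 7.48 and 7.83 post-hyperglycemia, with groups that overlapped throughout. Atf6 read 9.62 and 9.65, 9.60 and 9.53, and 9.79 and 9.52 in the same order of groups.

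Xbp1, whose mRNA is both a target of ATF6 and the substrate of IRE1, read 11.64 and 11.63 pre-hyperglycemia, 11.64 and 11.70 in BBDR.+/+, and 11.54 and 11.60 post-hyperglycemia. Its differences were -0.10, -0.07 and -0.03 in post-hyperglycemia minus BBDR.+/+, post-hyperglycemia minus pre-hyperglycemia and pre-hyperglycemia minus BBDR.+/+. The probe set was not assigned to the spliced or the unspliced form. Atf4 read 11.22 and 11.30, 11.13 and 11.01, and 11.11 and 11.17, and Ddit3 read 7.79 and 7.92, 7.76 and 7.84, and 7.78 and 7.69, in the order pre-hyperglycemia, BBDR.+/+ and post-hyperglycemia.

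For these factors the intervals describe the difference in signal among these arrays alone, whose spread may be technical. Post-hyperglycemia minus BBDR.+/+, the 95% interval of the log2 difference ran from -0.16 to 0.30 for Atf4, from -0.30 to 0.17 for Ddit3 and from -0.32 to 0.12 for Xbp1. Phosphorylation of PERK, splicing of Xbp1 and cleavage of ATF6, by which the response is switched on, were not measured by these values.

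Gdf15 had the widest range among the brightest probe sets of the members. It encodes a secreted protein of the TGF-β family that ATF4 and CHOP induce, as does p53. Its log2 signal was 7.19 and 7.38 pre-hyperglycemia, 8.23 and 8.40 in BBDR.+/+, and 7.89 and 8.34 post-hyperglycemia. Both pre-hyperglycemia arrays were below the other 4, and post-hyperglycemia overlapped BBDR.+/+.

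Gdf15 was lower pre-hyperglycemia than in BBDR.+/+ by a log2 difference of -1.03 ± 0.15 (SE; adjusted p = 0.0126), 2.04-fold. It was higher post-hyperglycemia than pre-hyperglycemia by 0.83 ± 0.15 (SE; adjusted p = 0.0195), 1.78-fold. Post-hyperglycemia minus BBDR.+/+, the difference was -0.20, with a 95% interval from -0.53 to 0.13 (adjusted p = 0.518). Gdf15 is among the genes that the study lists from these samples, so its change is not independent evidence. The listing is under lipid pathways altered alike post-hyperglycemia against pre-hyperglycemia and against diabetes-resistant rats. Here post-hyperglycemia Gdf15 was called against pre-hyperglycemia alone, and its sign against BBDR.+/+ was the opposite one. The first difference was -0.94 (adjusted p = 0.0774) without pre-hyperglycemia replicate 1, -1.11 (0.0997) without BBDR.+/+ replicate 1 and -0.95 (0.191) without BBDR.+/+ replicate 2. Post-hyperglycemia minus pre-hyperglycemia it was 0.73 (adjusted p = 0.0715) and 0.93 (0.0613) without pre-hyperglycemia replicate 1 or 2 and 0.60 (0.0722) without post-hyperglycemia replicate 2, and with the 3′ minus 5′ covariate it was 1.54 (adjusted p = 0.592).

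The other ATF4 targets among the members did not follow Gdf15 past the test. Trib3, a pseudokinase that inhibits AKT, had differences of 0.0047, 0.0023 and 0.0024 in post-hyperglycemia minus BBDR.+/+, post-hyperglycemia minus pre-hyperglycemia and pre-hyperglycemia minus BBDR.+/+. Asns, asparagine synthetase, had -0.04, 0.19 and -0.23. Among 26 further genes of the PERK-ATF4 branch, not all of them ATF4 targets, Atf3 had the order of Gdf15 without passing. It is named here for its values. It had -0.12, 0.41 (adjusted p = 0.117) and -0.53 (adjusted p = 0.0855). Of these 26, 14 were negative and 12 positive in pre-hyperglycemia minus BBDR.+/+.

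The translocon members form the SEC61 channel (Sec61a1, Sec61b and Sec61g) and its partner, the translocon-associated protein complex (Ssr1 and Ssr3). By the brightest probe sets, limma passed 0 of the 5 in each comparison, where 0 had an unadjusted p under 0.05 and rank product also passed 0. Their differences against BBDR.+/+ post-hyperglycemia ran from -0.08 to 0.07. Sec61a1, the pore subunit, had a log2 signal of 11.11 and 11.19 pre-hyperglycemia, 11.16 and 11.10 in BBDR.+/+, and 11.05 and 11.08 post-hyperglycemia.

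Among the 8 ERAD members, Herpud1 fell post-hyperglycemia against both other groups. It encodes a ubiquitin-like membrane protein that assembles the degradation complex, and its promoter held the ER stress element II shown above. The log2 signal was 10.62 and 10.73 pre-hyperglycemia, 10.62 and 10.69 in BBDR.+/+, and 10.004 and 10.24 post-hyperglycemia. Both post-hyperglycemia arrays were below the other 4, which overlapped.

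The Herpud1 difference was -0.53 ± 0.11 (SE; adjusted p = 0.0231) against BBDR.+/+, 1.45-fold lower, and -0.55 ± 0.11 (SE; adjusted p = 0.0334) against pre-hyperglycemia, 1.47-fold lower. Pre-hyperglycemia minus BBDR.+/+ it was 0.02 (adjusted p = 0.972). Against BBDR.+/+ it was -0.57 (adjusted p = 0.0917) and -0.50 (0.187) without BBDR.+/+ replicate 1 or 2 and -0.42 (0.113) without post-hyperglycemia replicate 1. Against pre-hyperglycemia it was -0.61 (adjusted p = 0.0689) and -0.50 (0.255) without pre-hyperglycemia replicate 1 or 2, -0.55 (0.0688) without either BBDR.+/+ array and -0.44 (0.153) without post-hyperglycemia replicate 1. With the 3′ minus 5′ covariate, the Herpud1 differences were -0.15 (adjusted p = 0.964) against BBDR.+/+ and -0.22 (adjusted p = 0.932) against pre-hyperglycemia. Within each group Herpud1 was higher in replicate 2, the array with the smaller 3′ minus 5′ difference. Gdf15 and the brightest Hyou1 probe set had the same order of replicates, and neither had a lower mean post-hyperglycemia than pre-hyperglycemia. The share of all probe sets with this order was not counted, and the part of the 3′ signal was not tested.

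The partners of Herpud1 in degradation were not called by their brightest probe sets. Sel1l and Syvn1, the adaptor and the ubiquitin ligase of the HRD1 complex, had differences of -0.06 and 0.21 post-hyperglycemia minus BBDR.+/+. Derl1 and Derl2, membrane proteins of the retrotranslocation step, had -0.04 and -0.08. Vcp, the ATPase that pulls substrates out, had -0.18, and Os9, a lectin that recognizes them, had 0.26. Edem1, a mannosidase-like factor that XBP1 induces, had 0.08 against BBDR.+/+ and 0.35 against pre-hyperglycemia (adjusted p = 0.133).

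Among the 10 members with an ER stress element of either form, the log2 difference in post-hyperglycemia minus pre-hyperglycemia was positive in 8 and negative in 2. The range was from -0.55 in Herpud1 to 0.50 in Creld2, with a median of 0.14, and Xbp1 was the other negative one at -0.07. In the 20 members with a window and neither element, the median was -0.03. Against BBDR.+/+ post-hyperglycemia, the medians were 0.06 and -0.05. The 8 positive members post-hyperglycemia minus pre-hyperglycemia were all among the chaperones, co-chaperones and lectin chaperones described above, so their count is not a separate result. Of all named genes, 7598 of 14217 were positive there. These values are descriptions with no test.

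The branches of the response were set against each other by the members that each is known to raise. A gene stood in at most 1 of the 3 branch lists, and could also stand in the list of chaperones and folding enzymes. As ATF6 and XBP1 both raise chaperone and ERAD genes, placing such a gene in 1 branch was a choice. Against BBDR.+/+ post-hyperglycemia, the median log2 difference was -0.04 for 5 PERK outputs, -0.05 for 10 IRE1-XBP1 outputs, 0.05 for 14 ATF6 outputs and 0.06 for the 17 chaperones and folding enzymes. Post-hyperglycemia minus pre-hyperglycemia, these medians were 0.0023, -0.03, 0.18 and 0.16. Pre-hyperglycemia minus BBDR.+/+, they were 0.0024, -2.02e-05, -0.07 and -0.03. Passing members were Gdf15 in the PERK list and Herpud1 and Pdia4 in the ATF6 list, and 0 of the 10 IRE1-XBP1 outputs passed with limma or rank product, where 0, 1 and 2 had an unadjusted p under 0.05 in the 3 comparisons.

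**Figure D3:**
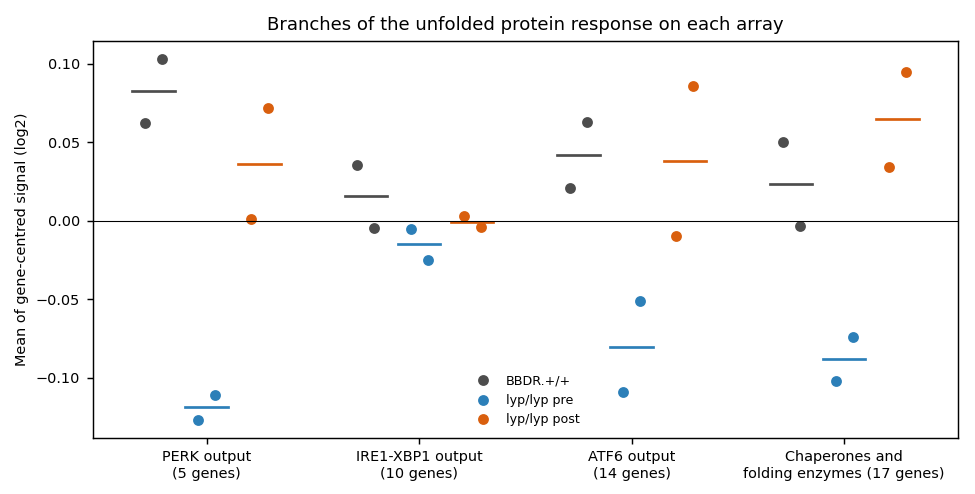
The mean over each list of the log2 signal after centring every gene on its mean over the 6 arrays (vertical axis), with a point for each array, a short line at the group mean and 4 lists on the horizontal axis. The pre-hyperglycemia arrays are lowest in the PERK, ATF6 and chaperone lists, from -0.13 to -0.05, and the IRE1-XBP1 list lies between -0.02 and 0.04 on every array.

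The mean of the PERK list in that plot rests on few genes, and its order follows that of Gdf15, while its median difference was near 0. In the ATF6 list, post-hyperglycemia overlapped BBDR.+/+, at -0.0095 and 0.086 against 0.021 and 0.063.

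Probe sets of the same gene did not always move together. Of the members, 13 had more than 1 probe set, which gave 19 dimmer ones beside the brightest. Post-hyperglycemia minus BBDR.+/+, 4 of the 19 were lower and 1 was higher, where 10.1% of the dimmer probe sets of all genes were lower and 1.32% higher. Against pre-hyperglycemia 2 of the 19 were lower, and 0 higher, where 4.37% of all such probe sets were lower and 0.499% higher, and pre-hyperglycemia minus BBDR.+/+ limma passed 0 of the 19, where 0.378% of all such probe sets were higher and 0.424% lower.

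Canx probe set 1371687_at had a log2 signal of 8.56 and 8.86 pre-hyperglycemia, 9.04 and 9.35 in BBDR.+/+, and 7.58 and 7.97 post-hyperglycemia. Both post-hyperglycemia arrays were below the other 4. The difference was -1.42 ± 0.16 (SE; adjusted p = 0.00103) against BBDR.+/+ and -0.93 ± 0.16 (SE; adjusted p = 0.0157) against pre-hyperglycemia, where the brightest Canx probe set had 0.12 and 0.11. The third Canx probe set, 1388442_at, had -0.37 (adjusted p = 0.0673) and -0.23 (adjusted p = 0.330). Against pre-hyperglycemia, 1371687_at had -0.78 (adjusted p = 0.123) without pre-hyperglycemia replicate 2 and -0.74 (0.0907) without post-hyperglycemia replicate 1.

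Sec61a1 probe set 1382615_at read 8.94 and 9.29 pre-hyperglycemia, 9.08 and 9.42 in BBDR.+/+, and 7.99 and 8.42 post-hyperglycemia. It too was lowest on both post-hyperglycemia arrays. The difference was -1.05 ± 0.17 (SE; adjusted p = 0.00621) against BBDR.+/+ and -0.91 ± 0.17 (SE; adjusted p = 0.0236) against pre-hyperglycemia, while the brightest probe set had -0.07 and -0.08 and the dimmest, 1395675_at, 0.06 and -0.05. Against BBDR.+/+ it was -0.88 (adjusted p = 0.104) without BBDR.+/+ replicate 2, and against pre-hyperglycemia -0.74 (0.182) without pre-hyperglycemia replicate 2 and -0.70 (0.128) without post-hyperglycemia replicate 1. Canx and Sec61a1 are also among the genes that the study lists from these samples, with a sign opposite to that of 1371687_at and 1382615_at under the labels. The fold sizes listed are near those of these probe sets. Against BBDR.+/+ and pre-hyperglycemia, 1371687_at was 2.67- and 1.91-fold lower and 1382615_at 2.07- and 1.88-fold lower. The brightest Canx probe set had the listed sign, but was 1.09- and 1.08-fold higher. The reason for the opposite signs was not tested.

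**Figure D4:**
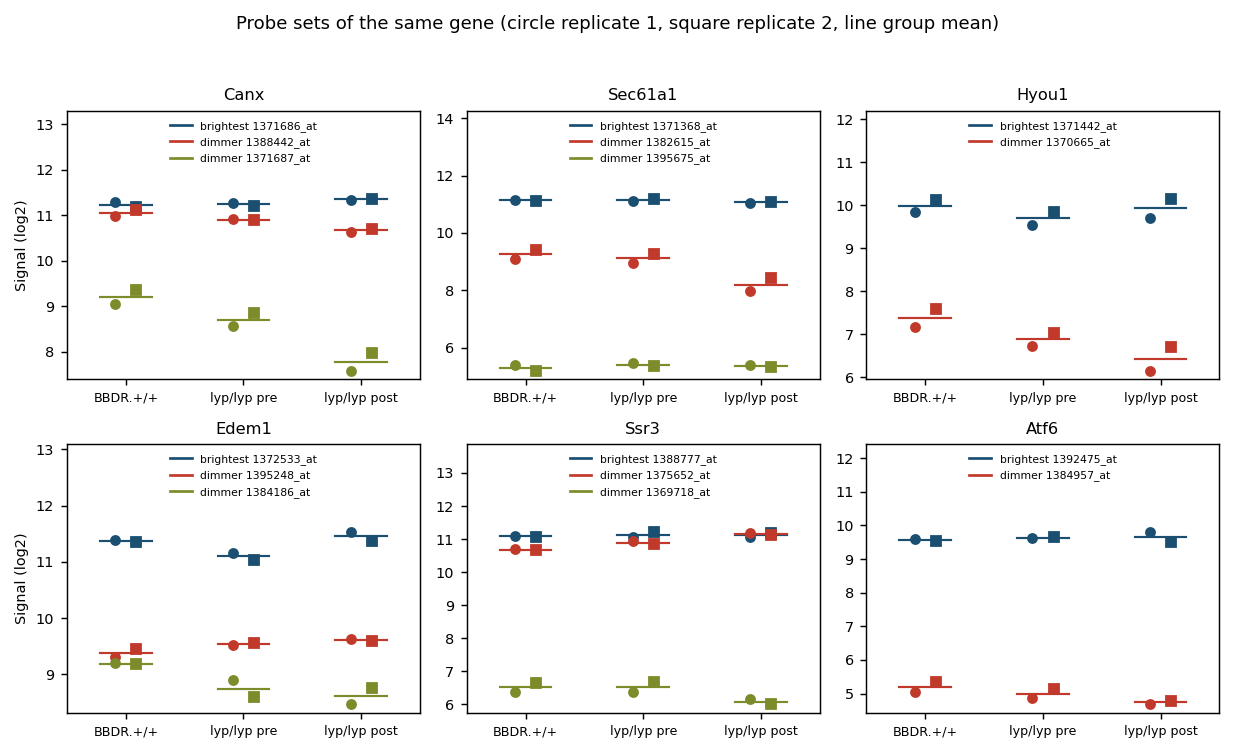
The log2 signal of each probe set of 6 members on every array, by group, with 1 colour for each probe set, a circle for replicate 1, a square for replicate 2 and a line at the group mean. In Canx, Sec61a1, Hyou1 and Atf6 the group means of the brightest probe set differ by at most 0.29 while a dimmer probe set is lowest post-hyperglycemia, and in Ssr3 the dimmer probe sets go opposite ways.

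Hyou1, an HSP70-like chaperone that acts as an exchange factor for BiP, had a dimmer probe set, 1370665_at, at 6.74 and 7.04 pre-hyperglycemia, 7.17 and 7.59 in BBDR.+/+, and 6.15 and 6.70 post-hyperglycemia. Its difference against BBDR.+/+ was -0.95 ± 0.19 (SE; adjusted p = 0.0168), beside -0.06 for the brightest Hyou1 probe set. It was -0.75 (adjusted p = 0.201) without BBDR.+/+ replicate 2 and -0.68 (0.0922) without post-hyperglycemia replicate 1.

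Edem1 probe set 1384186_at fell by 0.58 against BBDR.+/+ (adjusted p = 0.0337), while 1395248_at had a difference of 0.22 and the brightest one 0.08. Without BBDR.+/+ replicate 1 or 2, or post-hyperglycemia replicate 1, the first of these was -0.57 (adjusted p = 0.148), -0.59 (0.202) or -0.44 (0.152). Ssr3 probe set 1375652_at rose by 0.47 (adjusted p = 0.0258), while 1369718_at had -0.44 (adjusted p = 0.0946) and the brightest one 0.04. The Ssr3 rise did not pass without any 1 of the 4 arrays compared, at 0.50 and 0.45 without BBDR.+/+ replicate 1 or 2 (adjusted p = 0.0980 and 0.190) and 0.44 and 0.51 without post-hyperglycemia replicate 1 or 2 (0.101 and 0.0640).

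The 3′ minus 5′ difference of the control probe sets was set beside these probe sets without a test. It was larger post-hyperglycemia than in both other groups, and within each group it was smaller in replicate 2. On that array 1371687_at of Canx, 1382615_at of Sec61a1 and 1370665_at of Hyou1 were higher, as was the Herpud1 probe set above. So were Gdf15 and the brightest Hyou1 probe set, whose means were not lower post-hyperglycemia than pre-hyperglycemia. Post-hyperglycemia the control difference was 1.74 and 1.68, where 1371687_at read 7.58 and 7.97. In BBDR.+/+ the control difference was 1.04 and 0.78, where 1371687_at read 9.04 and 9.35. With the 3′ minus 5′ difference as a covariate, the differences against BBDR.+/+ were -0.19 for the Canx, 0.34 for the Sec61a1 and 0.59 for the Hyou1 probe set, with adjusted p of 0.958, 0.919 and 0.862. The Edem1 probe set 1384186_at was higher in replicate 2 post-hyperglycemia alone. It read 8.90 and 8.59 pre-hyperglycemia, 9.20 and 9.18 in BBDR.+/+, and 8.47 and 8.75 post-hyperglycemia in replicates 1 and 2. With the covariate its difference was -0.89 (adjusted p = 0.770), and that of Ssr3 1375652_at was 0.19 (adjusted p = 0.946). Where in its transcript each probe set lies was not analysed here, and the part of the 3′ minus 5′ difference in these results cannot be told apart from that of the group.

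The rest of the pathway was read from a list of 90 other genes of the response, of which 86 were measured. Post-hyperglycemia minus BBDR.+/+, 1 was lower and 0 were higher. This was Sec24d, a subunit of the COPII coat that carries proteins out of the ER. Its log2 signal was 10.08 and 10.03 pre-hyperglycemia, 10.45 and 10.46 in BBDR.+/+, and 9.75 and 10.05 post-hyperglycemia.

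The Sec24d difference was -0.56 ± 0.12 (SE; adjusted p = 0.0230), 1.47-fold lower, and -0.16 (adjusted p = 0.593) against pre-hyperglycemia. Pre-hyperglycemia minus BBDR.+/+ it was -0.40 (adjusted p = 0.198), and both BBDR.+/+ arrays were above those of both other groups. In the other comparisons limma passed 0 of the 86, and rank product passed 0. There 13 and 8 had an unadjusted p under 0.05, beside 13.4% and 12.2% of all named genes. The median log2 difference of the 86 was 0.04 post-hyperglycemia minus BBDR.+/+, -0.01 post-hyperglycemia minus pre-hyperglycemia and 0.02 pre-hyperglycemia minus BBDR.+/+. By group, Sec24d stood in the list of 18 further IRE1-XBP1 genes, of which 1 was thus lower post-hyperglycemia minus BBDR.+/+. At an unadjusted p under 0.05, 1 of these 18 was higher there and 2 were lower. Of the other lists, 0 of 26 other PERK-ATF4 genes and 0 of 22 further genes of the ATF6 branch and of folding passed in each comparison. Likewise 0 of 10 glycosylation genes and 0 of 10 further ERAD genes passed. In that order, 3, 8, 2 and 0 had an unadjusted p under 0.05 post-hyperglycemia minus BBDR.+/+, beside 18.9% of all named genes.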

How the data were processed

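Per the labels and methods, the authors hybridized liver RNA to a rat genome array of 31099 probe sets, quantified the images in Affymetrix Expression Console, and used Partek Genomic Suite for normalization. The deposited values are normalized log2 signals, and the algorithm is not given in the sources used here. After removal of 57 control probe sets, 31042 were tested without a filter. Names came from the array's probe-to-gene table, where 20826 probe sets had 1 symbol, 436 several and 9780 none. The number of arrays limits the precision.

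limma (version 3.58.1, R 4.3.3) was fitted to all 6 arrays with 1 mean per group, and p-values were adjusted by Benjamini-Hochberg over all probe sets of a comparison. The brightest probe set by mean over the arrays represented a gene. Rank product used 4 pairwise ratios and a null of 100 permutations of each array's values, a null chosen after another one, which ignored that the ratios share arrays, had been run. It was called at a share of false positives under 0.20. The steps were tested on simulated data with moderated spreads; with unmoderated ones limma recovered fewer changes, so no rate is given.

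Members and lists were chosen with earlier results of these data known, and Gdf15, Canx and Sec61a1 were named as genes of the study. Named genes were passing members, Hspa5, the sensors, the factors and these 3. Creld2, Hsp90b1 and the ER stress element II were added after values or sequences had been seen. Promoters were searched with Python 3.11.15 in RefSeq windows, which held 30 members. Protein sequences were not analysed here.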

Additional observations from a re-analysis of the deposited data

How the results depend on the processing

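Each group had 2 arrays. The members called in post-hyperglycemia minus BBDR.+/+ numbered 2, and 0 with the 3′ minus 5′ covariate, with the methods' t-test after adjustment, by rank product or with a 1.5-fold minimum, 4 with that t-test unadjusted or with each gene's probe sets averaged, and 7 of 57 with every probe set counted. Leaving out 1 array gave 0 to 2. Post-hyperglycemia minus pre-hyperglycemia they numbered 2, and 5 in the brightest 30% of probe sets, with an intensity trend or with the t-test unadjusted, 4 with every probe set, 1 with limma on those 4 arrays alone, by rank product or at 1.5-fold, 0 with the covariate or the adjusted t-test, and 0 to 1 without 1 array. The split there was 1 higher and 1 lower, and 2 higher and 1 lower after quantile normalization, and 2 higher and 0 lower after centring on ribosomal protein genes. Pre-hyperglycemia minus BBDR.+/+ the count was 1, and 3 with the trend, 6 with the t-test unadjusted, 0 with it adjusted, and 0 to 1 without 1 array.

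Of the 86 other pathway genes, 1 was called in post-hyperglycemia minus BBDR.+/+, and 3 or 6 in the brightest 60% or 30%, 10 with the trend or the t-test unadjusted, 4 with the mean of probe sets, 12 with every probe set, 5 at an adjusted p under 0.10, 0 with the covariate, the adjusted t-test, rank product or 1.5-fold, and 0 to 2 without 1 array. Post-hyperglycemia minus pre-hyperglycemia 0 were called, and 1 in the brightest 30%, 7 with the t-test unadjusted and 3 with every probe set. Pre-hyperglycemia minus BBDR.+/+ 0 were called, and 10 with the t-test unadjusted, 1 with the mean of probe sets and 1 under 0.10.

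The member median in post-hyperglycemia minus BBDR.+/+ was -0.0594 with the covariate, -0.0290 with the mean of probe sets and -0.0041 to 0.0377 without 1 array. Post-hyperglycemia minus pre-hyperglycemia it was 0.0436 after quantile normalization, 0.0639 after ribosomal centring, 0.0546 with the covariate, -0.0266 with the mean of probe sets, -0.0308 with every probe set and 0.0165 to 0.0523 without 1 array. Pre-hyperglycemia minus BBDR.+/+ it was -0.0368 after quantile normalization, -0.0385 after ribosomal centring and -0.0206 to 0.0053 without 1 array.

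With a replicate block, 2, 3 and 1 members were called in the 3 comparisons and 4, 1 and 1 of the other pathway genes. The labels give no pairing, the correlations of the replicate deviations between groups were 0.261, 0.110 and 0.142, and there were 2 pairs a comparison, so the samples were taken to share only a number. The block also passed 1371687_at of Canx in pre-hyperglycemia minus BBDR.+/+ (-0.49, adjusted p = 0.0458) and 1370665_at of Hyou1 in post-hyperglycemia minus pre-hyperglycemia (-0.46, adjusted p = 0.0388).

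Beside the medians above, the sign turned in 5 cases where a named difference had passed before or after the change, and differences that passed in neither are not listed. Canx by the mean of its probe sets was -0.56 against BBDR.+/+ (adjusted p = 0.0110), by construction, since 2 of its 3 probe sets had negative differences. With the covariate, the post-hyperglycemia differences of Canx 1371687_at against pre-hyperglycemia (0.14), of Hyou1 1370665_at against BBDR.+/+ (0.59), and of Sec61a1 1382615_at against both (0.34 against BBDR.+/+ and 0.30 against pre-hyperglycemia) turned positive, and the cause was not tested. Creld2, not called in post-hyperglycemia minus pre-hyperglycemia, passed after quantile normalization (adjusted p = 0.0484), after ribosomal centring (0.0439), in the brightest 60% (0.0384), with the trend (0.0121) and with the block (0.0469), and Hspa5 passed in the brightest 30% (0.0447) and with the trend (0.0125). Herpud1 there did not pass after ribosomal centring (adjusted p = 0.0515) or on the 4 arrays alone (0.0688).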
